A study of Rattus norvegicus with 2 samples.

Results

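Chemokines, interleukins and their receptors were looked for by name in the transcript models assembled from rat femur. A gene was counted when its name, without regard to case and without the endings for predicted or mapped genes, consisted of Cxcl, Ccl, Cxcr, Ccr or Ccrl and a number, or began with Il and a number or with Cx3c. This gave 37 of the 12568 named genes, with 83 of the 43391 transcripts of the annotation. They comprised 7 chemokine ligands, 5 chemokine receptors, 4 interleukins, 18 interleukin receptor chains, 2 soluble inhibitors (Il1rn and Il18bp) and Il1rl1l, which the RefSeq gene table of the rat assembly GRCr8 lists under the symbol Tmed1, a protein of vesicle transport and not a receptor. No name of the fractalkine family (Cx3c) was found. Of the names, 29 are current GRCr8 symbols and 8 are older ones. Besides Il1rl1l, the older names are Cxcl4 (now Pf4), Cxcl7 (Ppbp), Il8rb (Cxcr2), Il17r (Il17ra), Il4ra (Il4r), Il6ra (Il6r) and Il1f8 (Il36b).

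The study sequenced femur RNA of female wild-type Wistar rats that had either lost both ovaries (OVX, a model of postmenopausal bone loss) or had a sham operation (SHAM) in which the ovaries stay in place. The sample labels give 1 OVX rat and 1 SHAM rat, both at 16 weeks, and additionally call the former old and the latter young. The methods of the study describe more sequenced rats per group and a shorter span of weeks, counted as feeding, and the labels do not say whether their weeks are an age or a time after the operation. Whole femur tissue holds bone, marrow, vessels and fat, and the labels name no step that separates them. The authors' files give the positions of transcript models from 2 assemblies, without the rats behind each, and no count, expression value or coverage. The depth is therefore unknown, and no member could be compared between OVX and SHAM. What follows describes which models were built, how complete they are and whether they occur in both assemblies, without any level of expression.

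Chemokines are small secreted proteins that direct the migration of blood cells by binding receptors that couple to G proteins. Interleukins act through receptor chains of other families, which signal by Janus kinases and STAT proteins or, for the interleukin-1 and interleukin-17 families, by adaptor proteins that lead to NF-kB. In bone, Cxcl12 of the marrow stroma holds blood stem cells in place through Cxcr4, and interleukin-1 and interleukin-6 are known to promote the formation of osteoclasts, the cells that resorb bone.

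The stretch of 100 bases upstream of the RefSeq gene start is shown for 4 genes, because each of them had a complete model in both assemblies and together they hold the stromal ligand Cxcl12 with its receptor, a platelet chemokine and a neutrophil receptor. Cxcl4, which also had such models, had no matching entry. Coordinates are those of GRCr8, each sequence is written 5′ to 3′ on the strand of the gene, and capitals mark TATAA on either strand.
Cxcl12, chr4:152060681-152060780, plus strand: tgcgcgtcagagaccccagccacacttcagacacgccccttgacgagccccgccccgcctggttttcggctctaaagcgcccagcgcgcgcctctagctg
Cxcr4, chr13:42634289-42634388, minus strand: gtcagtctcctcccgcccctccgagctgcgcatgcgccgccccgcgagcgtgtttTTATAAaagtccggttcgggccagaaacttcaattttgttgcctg
Cxcl7 (Ppbp), chr14:17587300-17587399, minus strand: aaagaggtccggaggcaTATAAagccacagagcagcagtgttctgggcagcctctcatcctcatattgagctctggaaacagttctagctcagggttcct
Il8rb (Cxcr2), chr9:83178545-83178644, plus strand: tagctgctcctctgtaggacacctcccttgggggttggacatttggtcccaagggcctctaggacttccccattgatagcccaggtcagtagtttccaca
The letters TATAA occurred on the gene strand 83 bases before the start of Cxcl7 and 44 bases before the start of Cxcr4, where the overlapping capitals also hold the motif on the other strand. Neither Cxcl12 nor Il8rb had these letters in the window. Of all 33469 RefSeq promoters, 7.64% held TATAA on the gene strand and 11.0% on either strand within the same window, so a match describes the sequence and nothing about its use in the femur.

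Most of the members were assembled, at least in part, on both occasions. Transcripts occurred in both assemblies for 25 of 37 members (67.6%, exact Clopper-Pearson 95% interval 50.2 to 82.0), against 76.5% of all named genes. The interval treats genes as independent draws and is no test of this difference. A further 8 members occurred in the first assembly only and 4 in the second only. At least 1 transcript was recorded in both assemblies for 10 members (27.0%), against 30.8% of all named genes. A model with every intron of a reference transcript, called here a full-chain model, was found for 10 members (27.0%, interval 13.8 to 44.1), against 38.6% of all named genes. Conversely, 18 members (48.6%) had nothing but contained fragments, which are models that lie wholly within the intron chain of a reference transcript, and over all named genes this share was 27.1%. The median longest model of a member measured 760 bp of exon sequence, and that of all named genes 1000 bp.

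The chemokine system and the interleukin system differed in completeness more than in presence. Transcripts in both assemblies were found for 8 of 12 chemokine ligands and receptors (66.7%) and for 15 of 22 interleukins and interleukin receptors (68.2%). Over all named genes this share was 76.5%. A full-chain model was found for 8 of those 12 genes (66.7%) but for only 2 of those 22 (9.09%). Likewise, 10 of the 19 chemokine transcripts (52.6%) and 4 of the 60 interleukin transcripts (6.67%) were recorded in both assemblies, against 12.2% of the transcripts of all named genes. Of these 10, Cxcl12 and Cxcl4 gave 3 each. Counted by gene, 6 of 12 chemokine genes (50.0%) and 3 of 22 interleukin genes (13.6%) had such a transcript, against 30.8% of all named genes. The groups differ in gene structure too, since no chemokine gene had a model of more than 4 exons. Among genes whose largest model has 2 to 4 exons, a full-chain model was found for the same 8 of 12 chemokine genes, for 0 of 13 interleukin genes and for 28.3% of the 5257 named genes of that kind. The number of exons was taken from the assembled models, so a long gene broken into pieces falls among those with few exons. A complete model of a gene with many exons leaves this class, so the split does not match the groups by structure. Among genes whose largest model has 5 or more exons, 2 of 9 interleukin genes (22.2%) had a full-chain model, against 39.9% of the named genes of that kind. No test was made, because genes are not replicates and each gene gives a single outcome.

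**Figure D1:**
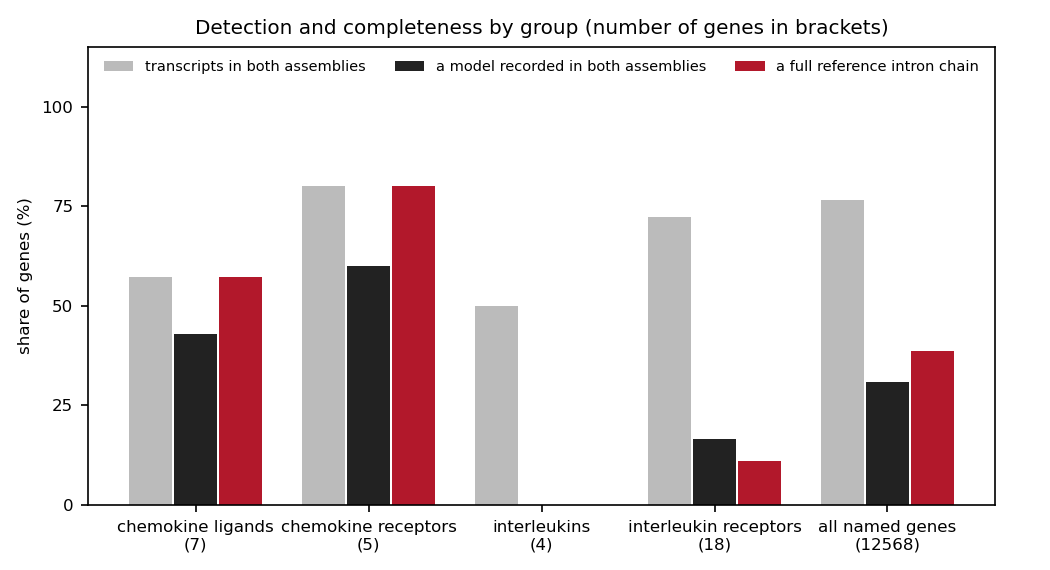
Share of genes in percent (vertical axis) with transcripts in both assemblies (grey), with a model recorded in both (black) and with a full reference intron chain (red), for 4 groups of members and all 12568 named genes. The red bar stands at 57.1% for chemokine ligands, 80.0% for chemokine receptors, 11.1% for interleukin receptors and 38.6% for all named genes, and interleukins have neither a red nor a black bar.

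Among the chemokine ligands, those of the marrow stroma and of platelets had complete models in both assemblies, and the other 4 did not. Cxcl12 (XLOC_004745, chromosome 4, 139267314 to 139280187, plus strand) had 4 transcripts. Its full-chain models of 3 exons (1873 bp) and of 4 exons (2878 bp) were both recorded in both assemblies. They begin at the same base and end 6076 bp apart, so that both assemblies held a short and a long 3′ form of this gene. The other shared model, of 4 exons and 866 bp, ended in a junction that the reference lacks, and all 3 shared models used the same first intron. The remaining transcript, of 2274 bp in 2 exons, overlapped the long last exon and occurred in the second assembly only.

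Cxcl4 and Cxcl7, which megakaryocytes make and platelets store in their granules, lie 2313 bp apart on the minus strand of chromosome 14. Cxcl4 (XLOC_013209, 16674288 to 16675291) had 3 full-chain models of 373, 613 and 749 bp, each of them recorded in both assemblies. The 749 bp model keeps as exon a stretch of 136 bp that the 613 bp model removes as its last intron, and the 373 bp model starts further downstream. Cxcl7 (XLOC_013210, 16677605 to 16679183) had 1 full-chain model of 3 exons and 1126 bp, also recorded in both. Each shared model is recorded once, with 1 set of positions, so a difference in its ends between the assemblies could not be seen here.

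Of the other chemokine ligands, Ccl5, Ccl3 and Cxcl9 occurred in the first assembly only, with a single transcript each. Ccl5 (XLOC_010931, chromosome 10, 67264203 to 67268757, minus strand), a chemokine that T cells among others make, had a full-chain model of 3 exons and 584 bp. Ccl3 (XLOC_010933, chromosome 10, 67391163 to 67391676, minus strand), a chemokine of macrophages, was represented by a contained fragment of 265 bp. Cxcl9, a ligand of Cxcr3 that interferon gamma induces, had a contained fragment of 271 bp in 3 exons. Cxcl16, a chemokine with a membrane anchor, had a contained fragment in each assembly, of 820 bp in the first and of 227 bp in the second. These fragments of Cxcl16 shared only 56 bp, or 5.65% of the exon sequence they cover together.

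Chemokine receptors mostly had a single, complete model of 2 exons; the coding sequence of such receptors is known to lie largely in 1 exon. Cxcr4 (XLOC_012633, chromosome 13, 40447191 to 40451104, minus strand), the receptor of Cxcl12, had a full-chain model of 1718 bp. Il8rb (XLOC_009342, chromosome 9, 73306847 to 73314179, plus strand), the neutrophil receptor of Cxcl1 and Cxcl2, had one of 2279 bp. Both of these models were recorded in both assemblies, and each was the gene's only transcript. Ccrl2, a receptor-like protein that binds chemerin without the usual signalling, had a full-chain model of 1979 bp in the first assembly only. Ccr3, known from eosinophils, had no full-chain model: the first assembly held one of 495 bp with a new junction and the second a contained fragment of 760 bp, and 57.5% of their joint exon sequence lay in both.

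**Figure D2:**
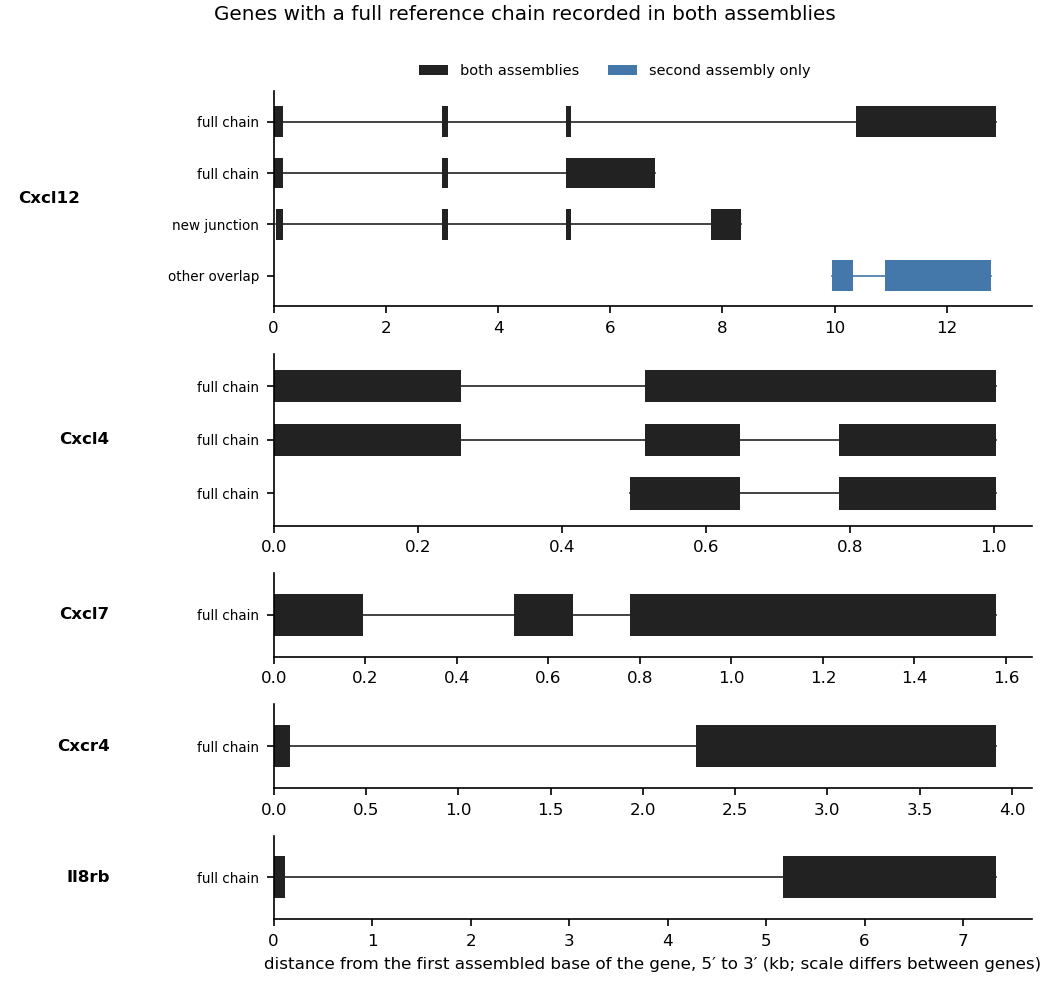
Exons (boxes) and introns (lines) of every transcript model of Cxcl12, Cxcl4, Cxcl7, Cxcr4 and Il8rb, which had a full-chain model recorded in both assemblies, by distance in kb from the first assembled base, each gene on its own scale. All models but the lowest one of Cxcl12 are black, meaning both assemblies, and the 2 full-chain models of Cxcl12 share their start and end 6076 bp apart.

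Interleukins themselves were few and incomplete. None of the 4 had a full-chain model or a transcript recorded in both assemblies. Il1b (XLOC_004197, chromosome 3, 115403659 to 115406060, minus strand), the main secreted form of interleukin-1, was represented by 1 contained fragment of 264 bp in the second assembly. Il1f8, a member of the interleukin-36 group of the same family, had a contained fragment of 578 bp in the second assembly only. Il12a, a subunit of interleukin-12, had fragments of 231 bp in the first and 361 bp in the second assembly, with 33.3% of their joint sequence in both.

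Il16, which attracts cells that carry CD4, had the most models among interleukins. Its 4 transcripts (XLOC_001487, chromosome 1, 129639589 to 129678695, minus strand) comprised 1 model in the first assembly, with 2448 bp in 6 exons, and 3 in the second, with 2252 bp in 7 exons, 237 bp in 2 exons and 306 bp in 3 exons. All but the last contained a junction that is not in the reference. Both long models end in the same region and share 4 whole exons of 1087, 169, 259 and 123 bp, and 70.4% of the gene's exon sequence lay in both assemblies. Thus Il16 was assembled to a similar extent both times, with no transcript recorded in both.

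The soluble inhibitors were found in both assemblies. Il1rn (XLOC_003146, chromosome 3, 1960953 to 1963970, plus strand), the secreted antagonist that occupies the interleukin-1 receptor, had 1 contained model of 3 exons and 1043 bp, recorded in both. Il18bp, which binds and blocks interleukin-18, had a new-junction model in each assembly, of 1057 bp in the first and 624 bp in the second. These covered neighbouring stretches of the gene and shared 38 bp, or 2.31% of their joint sequence, the lowest value among members in both assemblies.

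**Figure D3:**
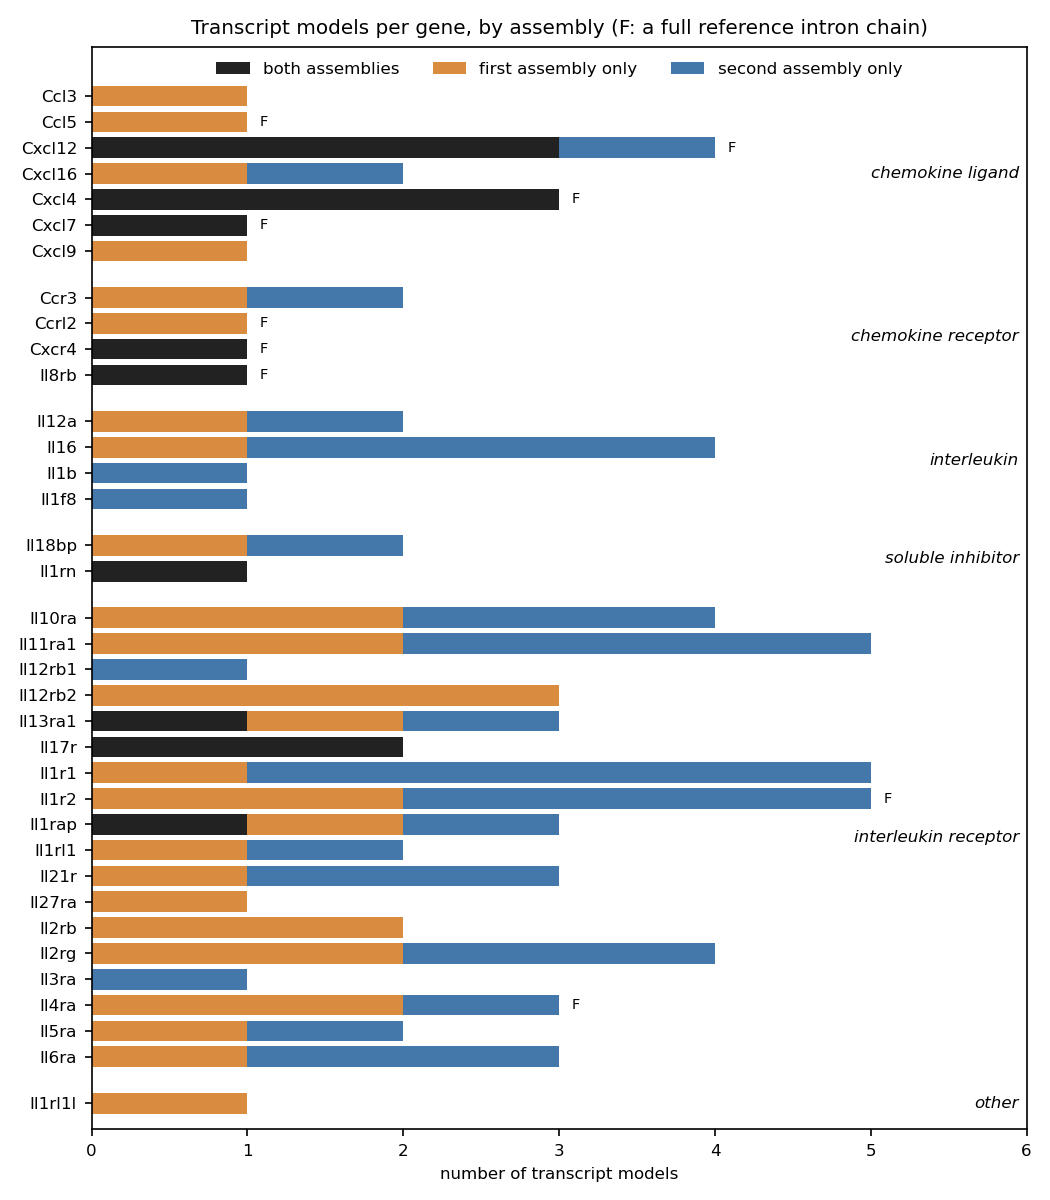
Number of transcript models of each member shown (horizontal axis), split into models recorded in both assemblies (black), in the first only (orange) and in the second only (blue), with F beside genes that have a full-chain model. Black bars lie mainly among chemokine ligands and receptors, whereas interleukin receptors carry up to 5 models that are mostly orange or blue.

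Interleukin receptors formed the largest group, with 18 genes and 52 transcripts. Of these genes, 13 (72.2%) occurred in both assemblies, against 76.5% of all named genes. The first alone held 3 (Il2rb, Il12rb2 and Il27ra) and the second alone 2 (Il3ra and Il12rb1). Of the 18, 11 (61.1%) had 3 or more models, against 46.8% of all named genes and 52.1% of those without a placeholder name. Contained fragments alone were found for 10 (55.6%), against 27.1% of all named genes, and 4 of the 52 transcripts (7.69%) were recorded in both assemblies. The longest model of a gene ranged from 211 bp for Il12rb1 to 3503 bp for Il4ra. Neither assembly prevailed, as 7 genes had more models found only in the second, 4 had more found only in the first and 7 had as many of either.

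All chains of the interleukin-1 receptor were assembled. Il1r2 (XLOC_009260, chromosome 9, 40130001 to 40170466, plus strand), the decoy that binds interleukin-1 without signalling, had 5 transcripts, namely contained fragments of 420 and 210 bp in the first assembly and of 491 and 766 bp in the second, and a full-chain model of 4 exons and 618 bp in the second. That model matches a short reference transcript from the 3′ part of the gene. Il1r1 (XLOC_009261, chromosome 9, 40284363 to 40323699, plus strand), the signalling chain, also had 5 transcripts, of which the first assembly held 1 of 262 bp and the second 4 of 200 to 447 bp. Only 13.6% of its exon sequence lay in both assemblies. Il1rap (XLOC_011654, chromosome 11, 72994023 to 73116578, minus strand), the accessory chain needed for signalling, had a contained model of 1004 bp at its 3′ end that was recorded in both, and fragments of 399 bp in the first and 301 bp in the second. Il1rl1, the receptor of interleukin-33, had fragments of 230 and 275 bp, with 10.5% in both. Among these chains, only Il1rap thus had a model recorded in both assemblies.

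Receptors of the interleukin-6 family were found without the shared signalling chain Il6st under its name. Il6ra (XLOC_002940, chromosome 2, 169241895 to 169289552, minus strand), the interleukin-6 binding chain, had a first assembly model of 2841 bp in 10 exons with a new junction. The second held a contained fragment of 436 bp and a new-junction model of 429 bp, and 27.3% of the exon sequence lay in both. Il11ra1 (XLOC_005444, chromosome 5, 55527735 to 55533344, plus strand), which binds interleukin-11, had 5 contained fragments, 275 and 315 bp long in the first assembly and 275, 686 and 249 bp long in the second. Il27ra, a chain of the interleukin-27 receptor, had a single new-junction model of 367 bp in the first assembly. Hence 43.3% of the exon sequence of Il11ra1 lay in both assemblies and none of that of Il27ra.

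Chains of the receptors for interleukin-2, interleukin-4 and related cytokines of lymphocytes were mostly fragments. Il4ra (XLOC_000618, chromosome 1, 177784621 to 177809189, plus strand), which serves interleukin-4 and interleukin-13, was the exception, with a full-chain model of 3503 bp in 11 exons in the first assembly, beside a contained one of 1544 bp. The second assembly held a contained model of 1620 bp in 9 exons. Il2rg, the gamma chain common to several of these receptors, had 4 contained fragments of 209 to 751 bp, with 35.9% in both assemblies. Il2rb, shared by the interleukin-2 and interleukin-15 receptors, reached 2152 bp of exon sequence in 2 contained models, all of it in the first assembly. Il21r lies 28387 bp downstream of Il4ra and had 3 models of 264 to 486 bp, with 13.3% in both. Il13ra1 (XLOC_016468, chromosome X, 114603697 to 114628172, plus strand), a partner chain of Il4ra, had a contained model of 3 exons and 232 bp recorded in both, besides fragments of 269 bp in the first and 464 bp in the second. Only this shortest model of Il13ra1 was thus recorded in both assemblies.

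Il17r had shared models only, and Il10ra was covered alike in both assemblies. Il17r (XLOC_004755, chromosome 4, 142518895 to 142541112, plus strand), the main chain of the interleukin-17 receptor, had a 5′ model of 9 exons and 943 bp and a 3′ model of 3 exons and 2563 bp, each with a new junction and each recorded in both. Of the new-junction transcripts of all named genes 5.76% were shared, and among members 3 of 17 were, the other being that of Cxcl12. Il10ra, the ligand-binding chain of the interleukin-10 receptor, had 4 contained fragments and no shared transcript, yet 91.8% of its 2945 bp of exon sequence lay in both assemblies. The pieces were cut at other points each time, with a 3′ model of 2024 bp in the first assembly and of 2617 bp in the second.

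The remaining receptor chains were each represented by small fragments. Il5ra, the eosinophil receptor of interleukin-5, had contained fragments of 422 bp in the first and 382 bp in the second assembly, with 71.8% in both. Il3ra, which binds interleukin-3, had 1 of 224 bp in the second assembly. Il12rb1 had 1 of 211 bp in the second and Il12rb2 had 3 models of 224 to 340 bp in the first, so the chains of the interleukin-12 receptor never occurred in the same assembly. Il1rl1l (Tmed1) had a contained fragment of 868 bp in the first assembly.

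**Figure D4:**
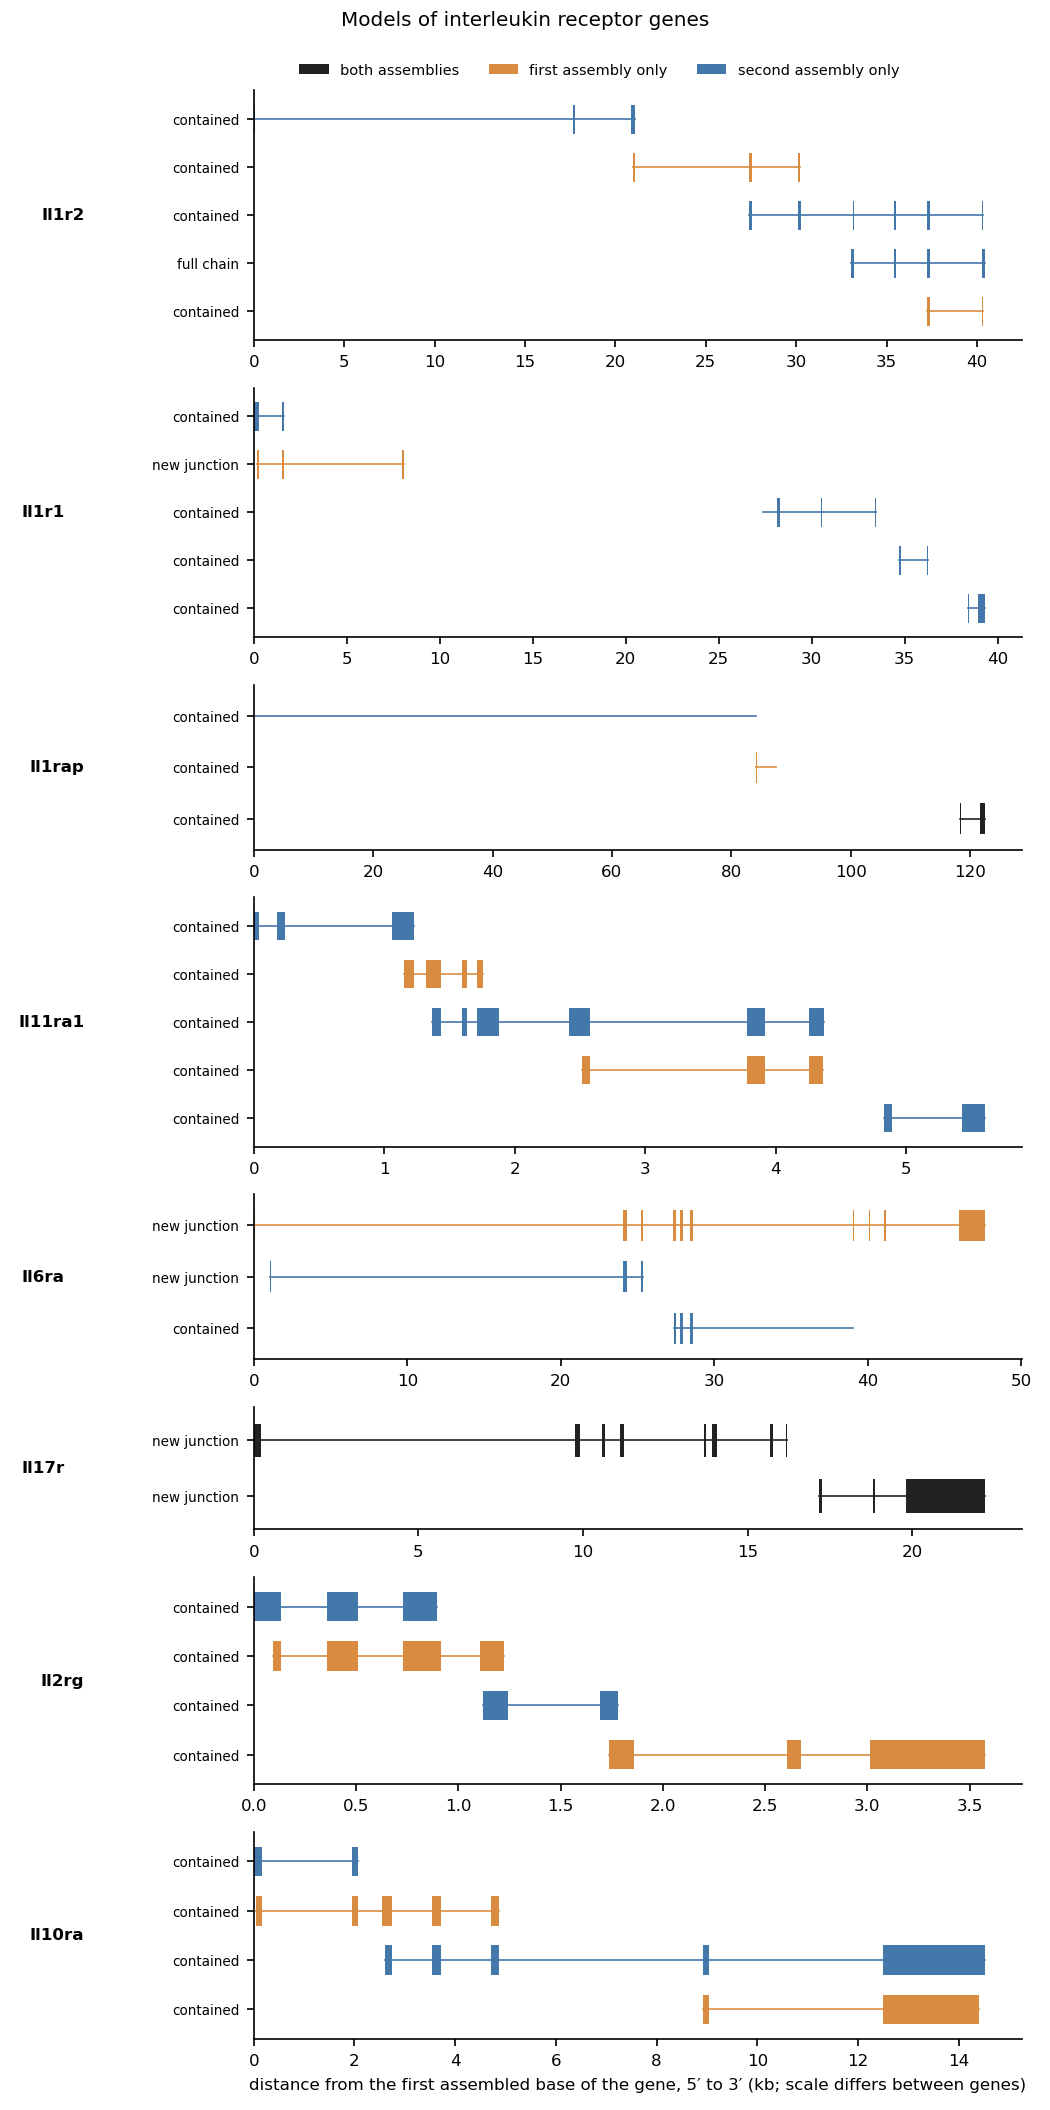
Exons (boxes) and introns (lines) of every transcript model of 8 interleukin receptor genes, by distance in kb from the first assembled base, each gene on its own scale and exons drawn to scale. Most models are pieces of the gene from 1 assembly each, and some of them overlap. The longest model of Il6ra, from the first assembly, runs over both models of the second. The models in black, recorded in both assemblies, belong to Il1rap and Il17r.

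How far the exon sequence of a gene coincided varied widely among the 25 members in both assemblies, with a median of 70.4% against 58.9% over the 9617 named genes in both. It was complete for 7 members (28.0%), among them Cxcl4, Cxcl7, Cxcr4, Il8rb, Il17r and Il1rn, and it was complete for 21.4% of the named genes. A shared model is recorded once and counts for both assemblies, so overlap is complete by construction where all models of a gene are shared. This holds for all 7 of these members, and such values enter the medians too. The overlap was under 15% for 5 members (20.0%), namely Il18bp, Cxcl16, Il1rl1, Il21r and Il1r1, against 11.5% of the named genes. Merged exon sequence is the union over both assemblies, so presence in both adds to it by construction, and the members are compared here only with named genes of the same size. Of members with less than 1000 bp of merged exon sequence, 7 of 17 (41.2%) occurred in both, against 48.3% of all named genes of that size. From 1000 bp to under 2000 bp, 10 of 11 members (90.9%) did, against 88.4%. Ccrl2 and Il2rb were the only members above 1000 bp that occurred in 1 assembly alone, with 1979 and 2152 bp in the first.

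**Figure D5:**
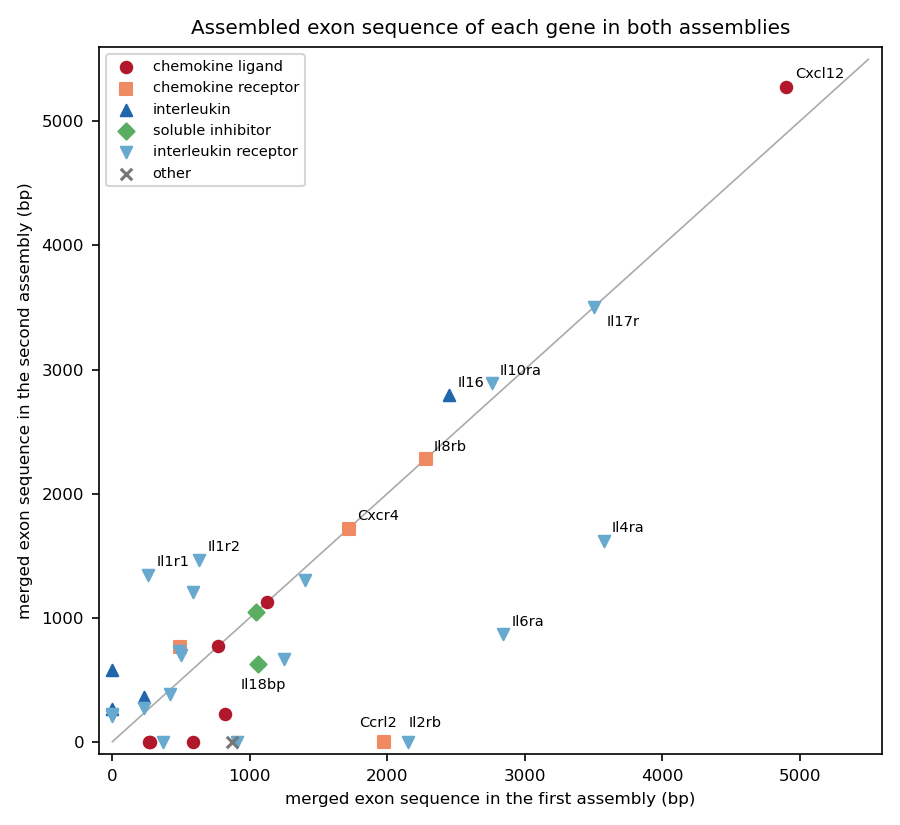
Merged exon sequence of each member shown in bp in the first (horizontal) and the second assembly (vertical), with a symbol for each role and the line of equal length. Genes whose models are all shared lie on the line by construction. Chemokine genes lie on the line or on the horizontal axis, which means absence from the second assembly, except Cxcl12, Cxcl16 and Ccr3, whereas Il4ra and Il6ra lie far below the line and Il1r1 and Il1r2 above it.

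The classes of the 83 transcripts lay near those of all named genes, but the shared ones did not fall evenly over the members. Contained fragments made up 51 of them (61.4%, against 56.1% over all named genes), and 3 of these (5.88%) were recorded in both assemblies, against 4.85% of the contained fragments of all named genes. Full-chain models made up 13 (15.7%, against 15.4%), of which 9 (69.2%) were recorded in both, against 50.2% over all named genes. All 9 belong to genes of the chemokine system, among them Cxcl12, Cxcl4, Cxcl7, Cxcr4 and Il8rb. A further 17 (20.5%, against 25.6%) had a new junction and 2 another kind of exon overlap, and every member transcript had 2 or more exons.

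Ligands and their receptors were set side by side in 18 known pairings. Ligand and receptor were both found in 4 of them, among them Cxcl12 with Cxcr4, Il1b and Il1rn with the interleukin-1 receptor chains, and interleukin-33 with Il1rl1. Interleukin-33 itself is named RGD1311155 in the annotation and was matched through the RefSeq gene table, so it is outside the 37. In 6 pairings only a receptor was found, namely for Cxcl1 and Cxcl2 (Il8rb), interleukin-6 and interleukin-11, interleukin-7 (the common chain Il2rg alone), interleukin-10, interleukin-17a and interleukin-34 (Csf1r). The list does not hold every ligand of a receptor, so other ligands of these receptors may be among the members. Cxcl9, Cxcl16, Il16 and Il18bp were found without a receptor of the list, and for Il16 none is listed. Neither of the listed names was found for Ccl2 with Ccr2, Cx3cl1 with Cx3cr1, Cxcl13 with Cxcr5 and interleukin-15 with Il15ra. The receptor of interleukin-15 also uses Il2rb, which is not in that pairing and was found in the first assembly. Taken over all members, 6 of 11 ligands (54.5%) and 17 of 23 receptors (73.9%) occurred in both assemblies, against 76.5% of all named genes. The difference of -19.4 percentage points between ligands and receptors turned to 41.5 points without contained fragments. Only 19 members then remained, few of them ligands.

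The RefSeq table of GRCr8 holds 132 protein-coding symbols that meet the name rule, and 37 of them (28.0%) were found in the annotation under a current or older name. That number is made of 34 members and of Ccl21b, Il33 and Il10rb under other names, while Cxcl4, Cxcl7 and Il1rl1l have current symbols outside the rule. Among the 4 larger groups, interleukin receptors were found most often, with 19 of 40 (47.5%), and interleukins least, with 5 of 37 (13.5%). In between lay chemokine receptors with 5 of 18 (27.8%) and chemokine ligands with 6 of 33 (18.2%), and of the soluble inhibitors 2 of 3 were found. Such a share over all protein-coding symbols was not computed, so these shares cannot be called high or low. A name that was not found does not show that the gene lacks a model, since 4469 of the 12568 names (35.6%) begin with the placeholder rCG_ and were not identified here. Such a locus, rCG_32832, lies between Ccl5 and Ccl3, where GRCr8 has 4 genes, Ccl6 and Ccl9 among them. Positions in the files were not compared with GRCr8, and this locus was left unnamed.

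Of the signalling genes behind these receptors, 32 of 51 were found by name and 31 of those occurred in both assemblies. Over all named genes, 76.5% occurred in both and 38.6% had a full-chain model. The share of all gene symbols found by name was not computed, so the numbers found have no background here. Among Janus kinases and STATs, which serve most interleukin receptors, 5 of 11 were found (among them Jak1, Jak2, Stat3 and Stat6), all in both assemblies, and 1 had a full-chain model. Of the SOCS proteins and Pias1, which restrain that signal, 3 of 9 were found (Socs2, Cish and Pias1), all in both. From the interleukin-1 receptor to NF-kB, 14 of 19 were found, 13 in both and 7 with a full-chain model, among them the adaptor Myd88 and the subunit Rela, and Irak2 alone was limited to the first assembly. For chemokine receptor signalling, 10 of 12 were found, all in both and 4 with a full-chain model, among them the arrestin Arrb2. A list of 11 chemokines, decoys and related genes whose current symbols are outside the name rule gave 5 genes, of which 3 occurred in both assemblies. Of these 5, Cxcl4 and Cxcl7 are members already counted, Rarres2 occurred in both assemblies, Cklf in the first only and Cmkor1 in the second only.

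Markers of the tissue were checked in the same way, as presence of models and not as levels. Of 13 osteoblast and osteocyte genes 12 were found, 9 of them with a full-chain model, including Col1a1 and Sost, and only Mepe was not found by name. For the blood cells that carry many of the receptors above, 6 of 8 neutrophil genes were found, all 6 in both assemblies, as were 6 of 7 B cell and plasma cell genes (5 in both), 2 of 6 macrophage genes (each in both), 3 of 9 T cell genes (2 in both), 3 of 5 mast cell genes (1 in both) and 1 of 4 natural killer genes (Prf1, first assembly). Osteoclasts were represented by 4 of 8 genes (3 in both, among them Ctsk and Acp5), vessels by 4 of 5 (all in both) and fat cells by 2 of 4 (each in both). Skeletal muscle genes were present as well, with 5 of 6 found and all 5 in both assemblies. Of all named genes, 76.5% occurred in both and 38.6% had a full-chain model. For the numbers of markers found by name, no share over all gene symbols was computed. The cell types from which the member transcripts came were not tested.

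Some unnamed transcripts lay within 5000 bp of a member. A single-exon transcript of 2195 bp (XLOC_005249) in the first assembly was placed on the strand opposite to Il17r, over its 3′ end. Another of 307 bp (XLOC_001488) lay on the strand of Il16, within its span, and was classed as antisense to the neighbouring gene RGD1561783. A transcript of 776 bp (XLOC_009343) began 1686 bp downstream of Il8rb on the same strand and was classed as a possible run-on. A gene of the authors' list of new genes (XLOC_012124), with models of 204 and 309 bp in the first assembly and of 497 bp in the second, lay on the same strand as Il3ra, at a distance of 1910 bp from it. No source used here says whether the library marks the strand, so antisense transcripts cannot be told apart from reads of the gene itself.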

How the data were processed

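RNA of the femurs was sequenced by the authors from libraries of a SMARTER mRNA-Seq kit. Per the labels, the processing notes name FastQC, HISAT2, StringTie and featureCounts and the build rn4, without versions or roles. The deposited files hold 1-based positions and attributes of transcript models in the form that gffcompare writes, and a list of new genes. Their sequence names were not matched to rn4, so the build of the positions printed here is not settled, and chromosomes were assigned by gene names (99.1% of matched symbols fell on the main chromosome of their sequence). Groups came from the labels, and the planned comparison of OVX with SHAM by limma was not run, since no file used here holds a value per sample. The sequencing depth is unknown, and neither assembly was tied to a group.

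The number of assemblies of a transcript is an attribute of the file. Which assembly held an unshared transcript was read from the numbering, which ran over both strands once and then again on 21 of 21 sequences, with 0 shared transcripts in the second run. Exons of a gene were merged per assembly, and overlap is the merged exon sequence in both as a percent of that in either. A shared transcript has 1 record, and its exons were counted for both assemblies. Symbols, neighbouring genes and the 100 upstream bases came from the RefSeq tables of GRCr8, whose coordinates were used for those sequences alone. Intervals are exact Clopper-Pearson intervals and treat genes as independent draws. The scripts were tested on simulated annotations. No test, p-value or random list was used. Members, gene lists and pairings were chosen with earlier results of these data known. Values in full were given for members with a transcript in both assemblies, for the 3 ligands and 3 receptors with the most transcripts and for the pairings, and others are given more briefly. Values of 1 member and 1 signalling gene are not reported here, although the counts include them, and the plots of single genes leave that member out. Alternatives were contained fragments left out, a minimum of 500 bp, 2 or more exons, names matched as written or through older symbols, identical exon chains counted once, full chains in both assemblies only, merged exons for the longest model, receptors without accessory chains and, added after seeing the data, Il1rl1l left out. Python 3.11.15, numpy 2.4.6, scipy 1.17.1 and matplotlib 3.10.9 were used.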

Additional observations from a re-analysis of the deposited data

How the results depend on the processing

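The share of members in both assemblies and the median longest model stayed within their limits (the 95% interval and 1.5 times the value) under each alternative run for these measures, as did the share with a full-chain model. These limits are wide and do not measure stability. Without contained fragments the share in both was 52.6% (55.1% over all named genes) and the median 1126 bp (1155 bp). With at least 500 bp required, the share in both was 54.2% (68.3% over all named genes). With contained fragments left out, 19 members remained, their median number of transcripts was 1 instead of 2, the share of transcripts recorded in both assemblies was 37.5% instead of 18.1% (21.6% over all named genes), and the difference between ligands and receptors reversed from -19.4 to 41.5 percentage points (80.0% against 38.5%). With at least 500 bp of exon sequence required, 24 members remained with a median of 1 transcript, 35.1% of transcripts were recorded in both (17.1% over all named genes), and the difference reversed to 7.14 points (57.1% against 50.0%). The order of ligands and receptors therefore depends on which models are counted, and the cause was not tested. Few ligands remained under either alternative, so a single gene moves their share by many points. Names matched as written gave 32 members and older symbols gave 40. No paired analysis was possible because neither rat has measured values here, and no replicate could be left out with 1 labelled sample per group. Depth is unknown, so a missing model cannot be told apart from too few reads.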
